A study of Homo sapiens with 12 samples.

Results

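The genes described here encode the nuclear subunits of the mitochondrial respiratory chain and of ATP synthase. They were chosen by symbol as the protein-coding genes starting with NDUFA, NDUFB, NDUFC, NDUFS or NDUFV (without the NDUFAF assembly factors), SDHA, SDHB, SDHC, SDHD, CYC1, the genes starting with UQCR, the COX4 to COX8 subunits, and the genes starting with ATP5F1, ATP5M or ATP5P. The rule gave 90 of the 60617 genes in the files, of which 40 belong by name to complex I, 4 to complex II, 10 to complex III, 17 to complex IV and 19 to ATP synthase. Among them 83 passed the filter on low counts and were tested with 15692 genes in all. The other 7 (UQCRHL, COX4I2, COX6A2, COX7A1, COX7B2, COX8C and ATP5MGL) were too scarce to test. The rule used no measured value.

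RNA-seq was performed on 12 libraries of human colorectal cancer cells. The labels describe all of them as HCT 116p53-/-, a colon carcinoma line deleted of the tumor suppressor p53, or a line made from it, so that the controls carry this deletion too. One group is HCT 116p53-/- with vehicle and another is the same line treated with 5 nM Actinomycin D (Act D) for 24 h. The third and the fourth group carry the genotype label P53-/-; RPL3 KO and received vehicle or 5 nM Act D for 24 h. RPL3 encodes the ribosomal protein uL3, and the study describes this line as a stably silenced subline, a single derived line. Each group had 3 libraries, labelled as biological replicates. Act D intercalates into DNA and at low doses acts mostly on RNA polymerase I. The comparison between the lines asks how the subunit mRNAs differ where uL3 is reported as lost, and the comparison between treatments asks how they respond to Act D.

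The labels were checked before any comparison. RPL3 mRNA was not lower in the libraries labelled RPL3 KO: it was 1138 ± 15.3 CPM (CPM, counts scaled to the library's total after TMM scaling, with SD and n = 3) in HCT 116p53-/- and 1242 ± 82.5 CPM in the libraries labelled RPL3 KO, both with vehicle (log2 difference 0.13, adjusted p = 0.15, edgeR quasi-likelihood test). Of the 9 colon epithelial markers, 6 were tested between the lines with vehicle, 5 were lower and KRT18 was higher where RPL3 KO was labelled. CDH1 went from 66.8 to 0.445 CPM and CDX2 from 14.8 to 0.177 CPM, and CDX1, VIL1 and LGALS4 were too scarce to test. The summed level of the 9 markers was 2479 to 2682 CPM in HCT 116p53-/- and 1591 to 1784 CPM in the libraries labelled RPL3 KO, with vehicle. Of the 6 mesenchymal markers, 4 were tested, VIM, COL3A1 and PDGFRB were higher there and COL1A1 was lower, and the summed level of the 6 was 28.0 to 34.4 CPM in one line and 2270 to 2348 CPM in the other. With vehicle, 2 of these 6 reached a mean of 1 CPM in HCT 116p53-/- and 4 in the libraries labelled RPL3 KO. For the 9 epithelial markers the counts were 6 and 4. Markers under that level in one line, such as CDH1 and CDX2, could pass the filter through the other line alone. Their values are a description with no test. The summed level of 5 leukocyte markers stayed at or under 9.14 CPM and that of 5 muscle markers at or under 3.22 CPM in every library. The part of these differences in the results between lines was not tested, and the line difference cannot be told apart from any other difference between these 2 lines. With these values the descent of the libraries labelled RPL3 KO from HCT 116p53-/- rests on the labels alone and is uncertain, so the values between lines below compare libraries as labelled and do not isolate the loss of uL3. In bulk RNA, fewer cells of a type and less RNA per cell cannot be told apart. Total counts were between 10087925 and 21138886 per library.

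In the inner mitochondrial membrane, complex I takes electrons from NADH and complex II from succinate, both pass them to coenzyme Q, complex III passes them on to cytochrome c, and complex IV reduces oxygen. The protons pumped by complexes I, III and IV drive ATP synthase. The mitochondrial genome encodes some core subunits of each of these except complex II, and all others are nuclear genes whose products are imported. The subunits are assembled in fixed stoichiometry, whereas each of their mRNAs is made from a gene of its own. The nuclear respiratory factor NRF1, the ETS family factor GABP and YY1 are known to bind many of these promoters.

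Between the lines, most subunit mRNAs were higher in the libraries labelled RPL3 KO. With vehicle, 55 of the 83 members were higher, against 35.1% of all genes tested, 10 were lower, against 36.2% of all genes, and 18 did not pass the test. The median log2 difference of the members was 0.52, beside a median of -0.02 over all genes. The share of members that passed in either direction, 65 of 83, is not far from that of all genes, and the members differ from the background mostly in the direction of the calls. With Act D, in libraries that the vehicle comparison did not use, 48 members were higher (35.1% of all genes) and 12 were lower (35.3% of all genes), with a median of 0.41 beside -0.02. The count of lower members with vehicle depended on single libraries: it was 4 without HCT 116p53-/- vehicle replicate 2, the library deposited per transcript, and 6 without replicate 1 of that group, beside 53 and 55 higher. In these fits 33.8% and 34.5% of all genes were lower, and 33.0% and 33.2% higher. The differences were mostly modest. Of the 15692 genes tested, 5912 passed with a log2 value of at least 1 with vehicle and 5824 with Act D. Among the 83 members, 18 did so with vehicle and 15 with Act D. These counts and those of higher members include NDUFA4L2, which is described below without a test. The members have a median transcript length of 753 bases, beside 2267 bases over all genes tested. After a joint correction for length and GC content, whose parts were not tested apart, 45 members were higher and 18 lower with vehicle (median 0.23), and 39 were higher and 22 lower with Act D (median 0.18). Over all genes this correction gave 36.3% higher and 36.3% lower with vehicle (median -0.011). With Act D it gave 36.0% and 35.8% (median -0.014). Scaling by library size alone moved the median of all genes to -0.26 in both comparisons. It left 44 higher and 17 lower members with vehicle, whose median was 0.54 above that of all genes, and 36 higher and 18 lower with Act D, whose median was 0.43 above it. Under this scaling 26.8% of all genes were higher and 44.4% lower with vehicle, and 27.0% and 43.5% with Act D.

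**Figure D1:**
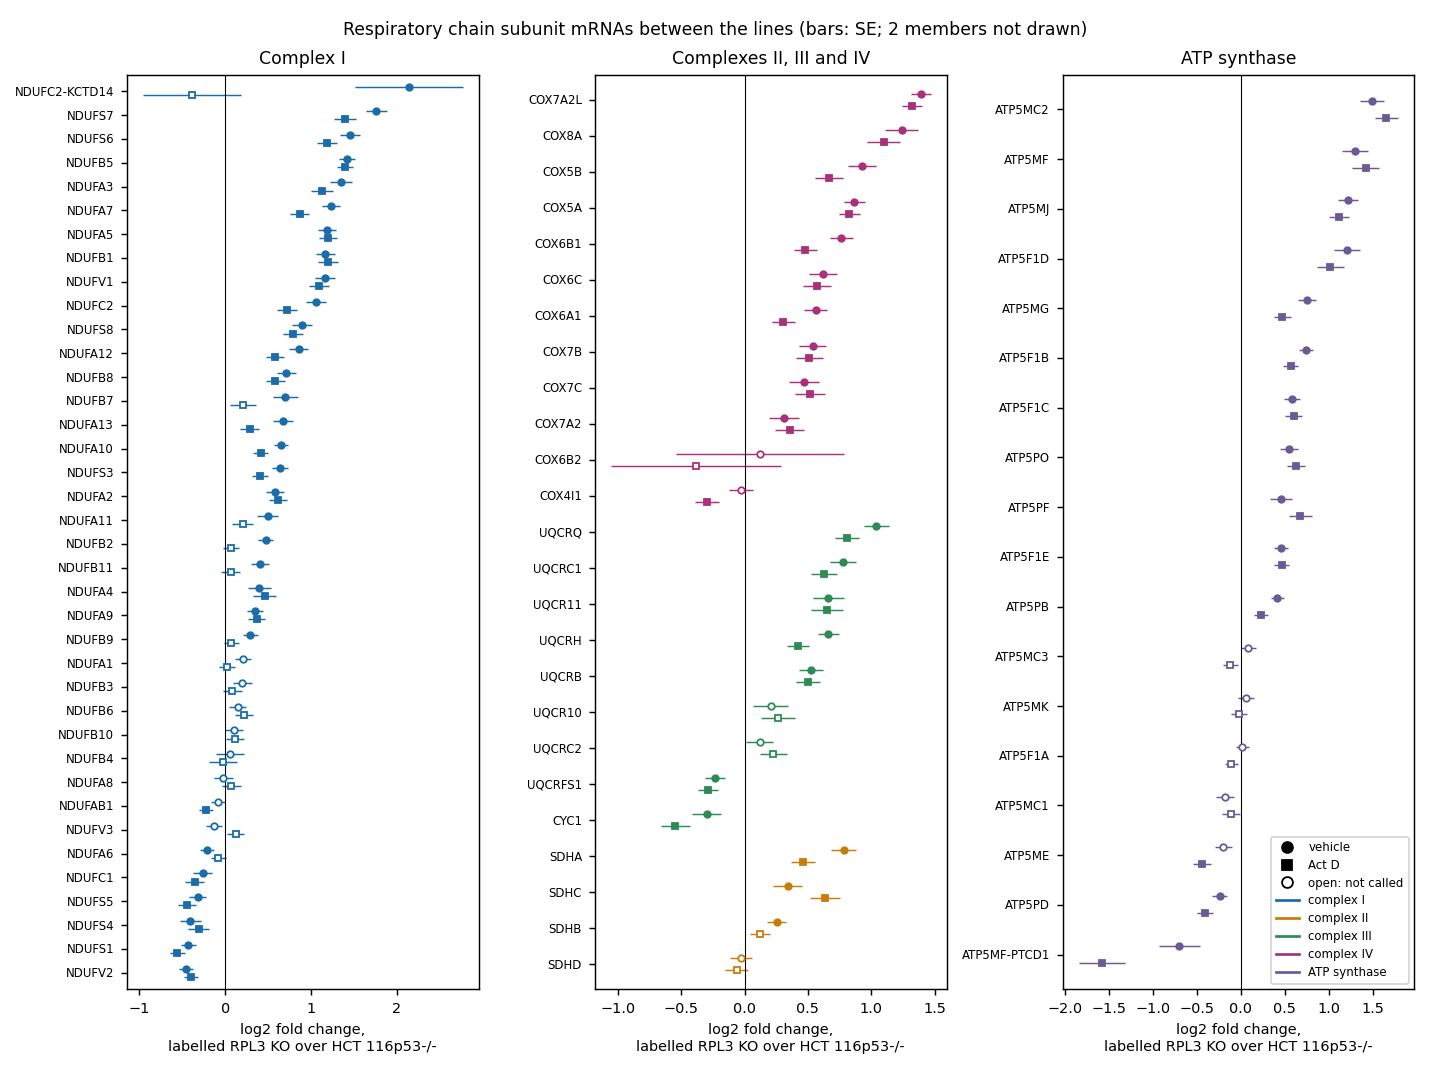
The log2 fold change (horizontal axis) of the members tested, except 2 that are not drawn, is plotted for vehicle libraries (circles) and Act D libraries (squares), with the standard error as bars and one row per gene, ordered within each complex. Filled symbols passed an adjusted p under 0.05. Values above 0 are higher in the libraries labelled RPL3 KO. With vehicle 66 of the 83 members tested lay above 0, and 55 of these passed, beside 35.1% of all genes. NDUFA4L2, at 6.32, is counted among the 55 but described without a test, and it is one of those not drawn.

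More members were higher than lower in every complex. With vehicle, complex I had 26 higher and 6 lower of 40 members, complex II had 3 higher and none lower of 4, complex III had 5 higher and 2 lower of 9 tested, complex IV had 10 higher and none lower of 12 tested, and ATP synthase had 11 higher and 2 lower of 18 tested. With Act D the counts were 20 and 6 for complex I, 2 and 0 for complex II, 5 and 2 for complex III, 10 and 1 for complex IV, and 11 and 3 for ATP synthase. Beside these counts, 35.1% of all genes were higher and 36.2% lower with vehicle, and 35.1% and 35.3% with Act D. No test of a difference between complexes was made.

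The 7 nuclear core subunits of complex I, which hold its flavin and iron-sulfur clusters, all passed the test in both comparisons, but not all in the same direction. Most genes passed between the lines: over all genes, 35.1% were higher and 36.2% lower with vehicle, and 35.1% and 35.3% with Act D. Calls in both directions are therefore common in any set of genes. In the libraries labelled RPL3 KO 5 of them were higher, among them NDUFS7 and NDUFV1, and NDUFV2 and NDUFS1 were lower. NDUFV1, NDUFV2 and NDUFS1 together form the NADH oxidizing module, so that this module held members that moved apart. NDUFS7 carries the last cluster of the chain, which hands electrons to coenzyme Q. Its gene lies at chr19:1383527-1395589 (hg38, plus strand). It measured 18.0, 23.9 and 22.4 CPM in the HCT 116p53-/- libraries with vehicle and 73.0, 76.8 and 68.2 CPM in those labelled RPL3 KO. The groups were far apart, by a log2 difference of 1.76 ± 0.12 (SE, adjusted p = 5.56e-10), the largest of the complex I members that were abundant in both lines. With Act D the difference was 1.40 ± 0.12 (adjusted p = 1.48e-08), although the libraries labelled RPL3 KO spread more widely, from 58.5 to 81.2 CPM.

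NDUFV1, which binds the flavin that accepts electrons from NADH, lies at chr11:67605653-67612554 on the plus strand. Its values were 82.1, 105 and 90.2 CPM in one line and 225, 211 and 185 CPM in the other with vehicle, a log2 difference of 1.16 ± 0.12 (adjusted p = 5.84e-08). NDUFV2, its partner subunit with an iron-sulfur cluster, lies at chr18:9102630-9134345 on the plus strand and moved the other way, from 101, 93.0 and 88.2 CPM to 65.9, 70.8 and 68.6 CPM (log2 difference -0.46 ± 0.08, adjusted p = 7.35e-05). NDUFS1, the largest core subunit, lies at chr2:206114817-206159509 on the minus strand and measured 116, 102 and 106 CPM beside 78.8, 84.4 and 77.5 CPM (-0.43 ± 0.08, adjusted p = 0.0002). In each of these 3 genes the groups did not overlap. The ratio of NDUFV1 to NDUFV2 counts, which does not depend on the scaling between libraries, was 0.986 ± 0.161 in HCT 116p53-/- and 3.03 ± 0.358 in the libraries labelled RPL3 KO with vehicle (SD, n = 3), and with Act D it was 0.969 ± 0.0509 and 2.74 ± 0.577. NDUFS7, NDUFV1, NDUFV2 and NDUFS1 kept their direction and their call in both comparisons under all 16 alternatives.

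The promoters of these 4 core subunits, from 250 bases before to 50 bases after the annotated start, are shown because they belong to one complex but to both directions of change. The sequences are RefSeq's on GRCh38.p14, and capitals mark the motifs searched on both strands, which do not overlap here: GCATGCGC for NRF1, CCGGAAG for ETS factors such as GABP, AAGATGG for YY1 and CACGTG for the E-box. NDUFS7 is at chr19:1383657-1383956 (plus strand), NDUFV1 at chr11:67606686-67606985 (plus), NDUFV2 at chr18:9102449-9102748 (plus) and NDUFS1 at chr2:206159395-206159694 (minus). These starts are RefSeq's and can lie apart from the gene starts given above, which are GENCODE's.
NDUFS7: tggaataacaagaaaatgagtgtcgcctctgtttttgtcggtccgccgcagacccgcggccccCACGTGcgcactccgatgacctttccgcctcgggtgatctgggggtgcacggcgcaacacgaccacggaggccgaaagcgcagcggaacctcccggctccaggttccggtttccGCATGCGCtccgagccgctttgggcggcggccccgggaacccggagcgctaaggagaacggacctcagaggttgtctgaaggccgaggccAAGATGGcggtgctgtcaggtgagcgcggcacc
NDUFV1: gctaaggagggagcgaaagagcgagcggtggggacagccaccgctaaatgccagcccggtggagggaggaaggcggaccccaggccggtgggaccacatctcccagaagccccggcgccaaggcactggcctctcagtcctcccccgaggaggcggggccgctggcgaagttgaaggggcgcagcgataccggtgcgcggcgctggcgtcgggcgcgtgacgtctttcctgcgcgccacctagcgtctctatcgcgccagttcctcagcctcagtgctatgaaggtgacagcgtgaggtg
NDUFV2: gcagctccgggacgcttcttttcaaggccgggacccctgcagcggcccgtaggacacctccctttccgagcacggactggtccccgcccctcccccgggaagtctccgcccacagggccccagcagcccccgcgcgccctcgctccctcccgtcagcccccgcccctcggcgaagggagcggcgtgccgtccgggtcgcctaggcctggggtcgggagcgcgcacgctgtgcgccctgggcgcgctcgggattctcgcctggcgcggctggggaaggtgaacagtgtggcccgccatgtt
NDUFS1: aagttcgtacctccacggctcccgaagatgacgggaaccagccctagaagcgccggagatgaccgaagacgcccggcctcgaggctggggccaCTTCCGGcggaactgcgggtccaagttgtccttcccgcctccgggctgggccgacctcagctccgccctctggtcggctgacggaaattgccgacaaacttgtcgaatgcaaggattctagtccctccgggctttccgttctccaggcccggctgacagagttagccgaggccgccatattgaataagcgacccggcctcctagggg
The promoter of NDUFS7 held the E-box letters at -187, the NRF1 letters at -73 and the YY1 letters at 18 from the start site, that of NDUFS1 held the ETS letters on the reverse strand at -157, and those of NDUFV1 and NDUFV2 held none of the 4. Promoters were found for 70 of the 90 members. The NRF1 letters stood in 13 of them (18.6%) and in 3.27% of the 27305 promoters of the table. The ETS letters were in 20 (28.6%, against 10.7% of all), the YY1 letters in 16 (22.9%, against 6.06%) and the E-box in 7 (10.0%, against 7.43%). By direction with vehicle, the NRF1 letters were in 8 of 43 higher and 1 of 7 lower members and in 4 of 17 that did not pass. The ETS letters were in 13, 2 and 5 of the same sets, and the YY1 letters in 12, 2 and 2. These are matches of letters and not shown to be bound.

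**Figure D2:**
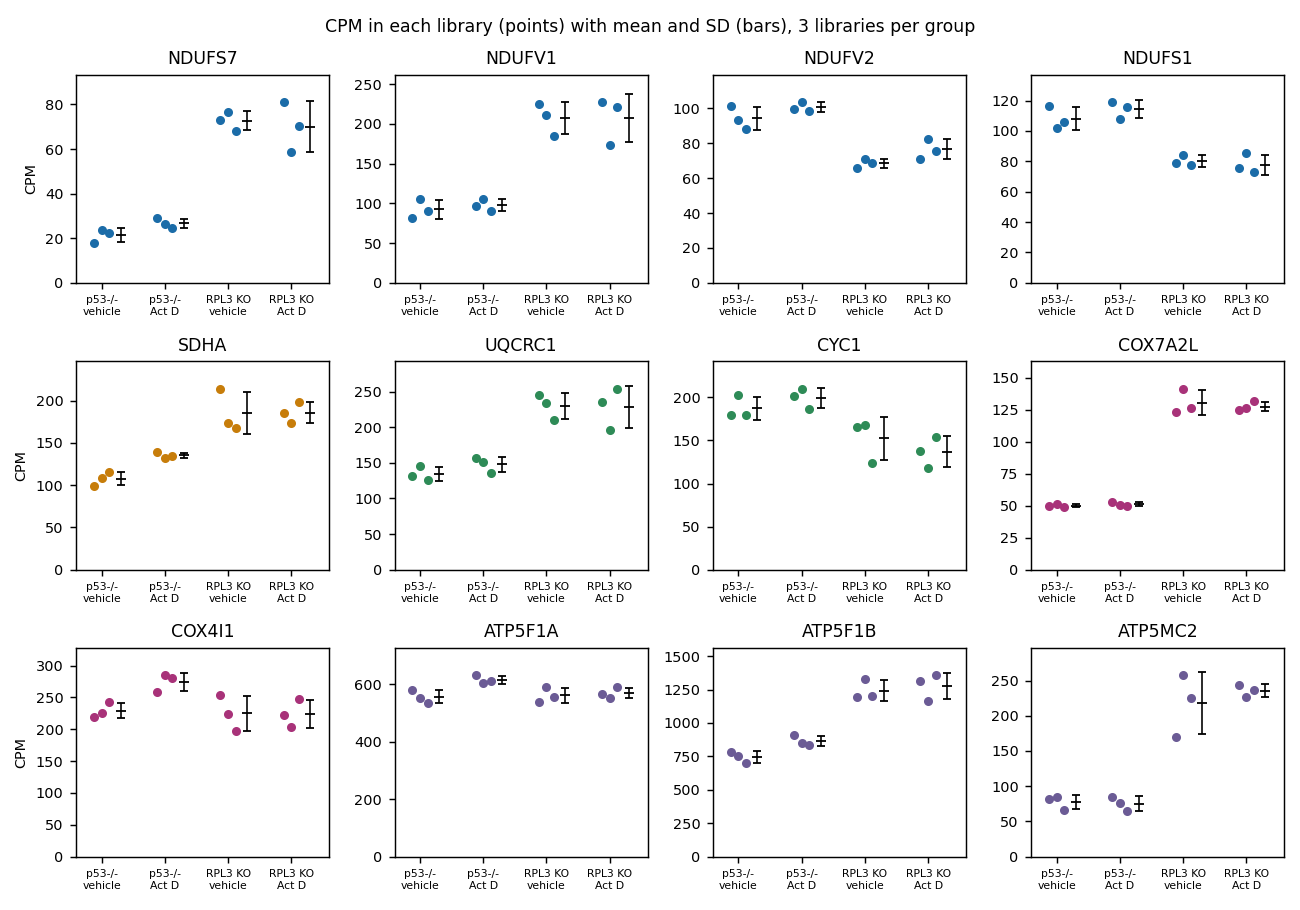
CPM in each library (points) is plotted by group for 12 members, with the mean and SD beside them; each vertical axis starts at 0. The libraries labelled RPL3 KO lie above the others for NDUFS7, NDUFV1, SDHA, UQCRC1, COX7A2L, ATP5F1B and ATP5MC2, below them for NDUFV2, NDUFS1 and CYC1, and, with vehicle, among them for ATP5F1A and COX4I1.

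Outside the core, 32 members carry a complex I name, without the read-through locus and with NDUFA4 and NDUFA4L2, whose place is described below. Of these 32, 20 were higher and 4 lower with vehicle, and 15 and 4 with Act D. Over all genes tested, 35.1% were higher and 36.2% lower with vehicle, and 35.1% and 35.3% with Act D. The accessory subunits surround the core and are needed for its assembly and stability. NDUFS6, which is required late in the assembly, rose from 28.8 ± 3.81 to 78.7 ± 4.47 CPM (log2 difference 1.45 ± 0.12, adjusted p = 3.12e-09). NDUFB5 (1.42), NDUFA3 (1.35), NDUFA7 (1.24), NDUFA5 (1.19) and NDUFB1 (1.17) were higher by similar log2 differences. NDUFS4 (-0.41), NDUFS5 (-0.32), NDUFC1 (-0.26) and NDUFA6 (-0.21) were lower. Of these 4, the call on NDUFS4 held under every alternative with vehicle, that on NDUFS5 was lost without HCT 116p53-/- vehicle replicate 2 (adjusted p = 0.0621), and those on NDUFC1 and NDUFA6 were lost under 6 and 7 of the 16 alternatives. Among these, NDUFC1 was lost without any of the HCT 116p53-/- vehicle libraries or vehicle replicate 1 labelled RPL3 KO, and NDUFA6 without vehicle replicate 1 or 2 of either line. With Act D, the call on NDUFS4 was lost without HCT 116p53-/- replicate 1 or 3 or replicate 1 or 2 labelled RPL3 KO, and that on NDUFC1 without HCT 116p53-/- replicate 2. The read-through locus NDUFC2-KCTD14 was higher with vehicle (2.14 ± 0.63, adjusted p = 0.00533) but not with Act D (-0.39, adjusted p = 0.56). Its counts are uncertain, since RSEM's posterior SD was 52.9% of the count in the median library.

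The widest gap between the lines was seen in NDUFA4L2, a paralog of NDUFA4 that is known as a target of hypoxia-inducible factor. Both genes carry a complex I name, although the NDUFA4 protein is now counted with complex IV. NDUFA4L2 lies at chr12:57234903-57240715 on the minus strand. It had 10 counts over the 3 HCT 116p53-/- libraries with vehicle and 859 over the 3 labelled RPL3 KO. The values were 0.194, 0.413 and 0.0604 CPM beside 16.1, 20.5 and 16.8 CPM. The mean rose from 0.223 ± 0.178 to 17.8 ± 2.38, a log2 difference of 6.32, and with Act D the difference was 6.04. NDUFA4L2 passed the filter on low counts through the libraries labelled RPL3 KO, where it was high, so these values are a description with no test. NDUFA4L2 is still held in the counts of higher members between the lines, also in those of complex I and of the members named for it outside its core. Its level, 9.29 TPM (the share of transcripts, which accounts for length) in the libraries labelled RPL3 KO with vehicle, still lay under the 35.4 TPM of NDUFA4 there. NDUFA4 itself differed by 0.40 with vehicle (adjusted p = 0.0126), with groups that overlapped, and this call was lost without HCT 116p53-/- vehicle replicate 3 or vehicle replicate 2 labelled RPL3 KO.

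The other tissue-restricted isoforms were scarce in both lines. COX4I2, COX6A2 and COX7A1, known from lung, heart or muscle, had 0 counts in all 12 libraries, which at 3 counts allows a level of up to 0.348 CPM in the shallowest library. COX7B2, COX8C and UQCRHL, a near copy of UQCRH without introns, had at most 5.08 counts in any library. COX6B2, a testis isoform, had 24.0 counts over the 3 HCT 116p53-/- libraries and 27.0 over the 3 labelled RPL3 KO with vehicle, and did not pass the test (0.12 ± 0.66, adjusted p = 0.88). Their common forms COX6A1, COX6B1, COX7A2, COX7B and COX8A were all higher in the libraries labelled RPL3 KO in both comparisons, by log2 differences from 0.31 for COX7A2 to 1.24 for COX8A with vehicle. COX4I1, the common form of COX4I2, was not (-0.03 with vehicle and -0.29 with Act D). COX7A2 with vehicle and COX6A1 with Act D turned to -0.11 and -0.0021 after the correction for GC content and length. The COX7A2 groups overlapped with vehicle, and that call was lost without HCT 116p53-/- vehicle replicate 2 or 3 or vehicle replicate 2 labelled RPL3 KO, while the COX6A1 call with Act D was lost without replicate 3 of either Act D group.

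In complex II, which is also the succinate dehydrogenase of the citric acid cycle, SDHA, SDHB and SDHC were higher with vehicle and SDHD was not. SDHA, the flavoprotein that oxidizes succinate, lies at chr5:218303-257082 on the plus strand and measured 99.4, 109 and 115 CPM in HCT 116p53-/- and 214, 174 and 168 CPM in the libraries labelled RPL3 KO (0.78 ± 0.10, adjusted p = 9.07e-07). SDHB, the iron-sulfur subunit, differed by 0.25 with vehicle (adjusted p = 0.00644) and by 0.12 with Act D (adjusted p = 0.162). SDHC, one of 2 membrane anchors, differed by 0.34 with vehicle (adjusted p = 0.0139), with groups that overlapped, a call that was lost without HCT 116p53-/- vehicle replicate 1 or 2 or vehicle replicate 2 labelled RPL3 KO, and by 0.64 with Act D (adjusted p = 0.000112). SDHD, the other anchor, differed by -0.03 ± 0.09 and -0.06 ± 0.09. The call on SDHB was lost after the correction for GC content and length and with scaling by library size alone.

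In complex III the catalytic subunits that carry the electrons to cytochrome c were lower in the libraries labelled RPL3 KO, while UQCRC1, UQCRQ and UQCRH were among the higher ones. CYC1, cytochrome c1, lies at chr8:144095039-144097525 on the plus strand. With Act D it measured 202, 210 and 187 CPM in HCT 116p53-/- and 138, 118 and 154 CPM in the libraries labelled RPL3 KO (-0.55 ± 0.12, adjusted p = 0.000393). With vehicle the difference was -0.30 ± 0.11 (adjusted p = 0.0271) and was lost without HCT 116p53-/- vehicle replicate 2 or without vehicle replicate 3 labelled RPL3 KO. UQCRFS1, the Rieske iron-sulfur protein, differed by -0.23 with vehicle (adjusted p = 0.0125) and -0.29 with Act D (adjusted p = 0.0031), and the first of these calls was lost without HCT 116p53-/- vehicle replicate 1 (adjusted p = 0.0505) and without the filter on low counts (adjusted p = 0.072). UQCRC1, one of the 2 core proteins, lies at chr3:48599002-48610976 on the minus strand and rose from 132, 146 and 126 CPM to 246, 234 and 210 CPM (0.78 ± 0.10, adjusted p = 1.87e-06). UQCRC2, the other core protein, did not pass (0.12 ± 0.11, adjusted p = 0.314). UQCRH, the hinge protein that contacts cytochrome c1, was higher by 0.66. UQCRQ, a small subunit, had the smallest p of the complex (1.04 ± 0.10, adjusted p = 2.28e-08). The ratio of UQCRC1 to CYC1 counts was 0.717 ± 0.0176 in HCT 116p53-/- and 1.53 ± 0.155 in the libraries labelled RPL3 KO with vehicle (SD, n = 3).

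In complex IV, COX7A2L had the smallest p. It resembles the COX7A subunits and is known to join complexes III and IV into a supercomplex. Its gene lies at chr2:42333546-42425088 on the minus strand. The values were between 48.6 and 51.1 CPM in HCT 116p53-/- and 124, 142 and 126 CPM in the libraries labelled RPL3 KO with vehicle (1.39 ± 0.08, adjusted p = 2.89e-11), and with Act D the difference was 1.32 ± 0.08. COX5A, a matrix-side subunit that joins early, rose from 57.7 ± 4.12 to 105 ± 6.64 CPM (0.87 ± 0.08, adjusted p = 3.09e-08). COX4I1, which joins the complex together with COX5A, lies at chr16:85798633-85807068 on the plus strand and was the exception. It measured 220, 225 and 242 CPM in one line and 253, 224 and 198 CPM in the other with vehicle, values that overlapped (-0.03 ± 0.10, adjusted p = 0.813). With Act D it was lower in the libraries labelled RPL3 KO (-0.29 ± 0.10, adjusted p = 0.0114). After the correction for GC content and length COX4I1 was lower with vehicle as well (-0.41).

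In ATP synthase the catalytic head held both patterns. ATP5F1B, the catalytic beta subunit, lies at chr12:56638175-56645984 on the minus strand and was the member with the highest level, 401 TPM in HCT 116p53-/- with vehicle. It measured 783, 751 and 700 CPM there and 1193, 1331 and 1204 CPM in the libraries labelled RPL3 KO (0.74 ± 0.08, adjusted p = 3.87e-07). ATP5F1A, the alpha subunit that alternates with beta in the head, lies at chr18:46080248-46104334 on the minus strand and did not pass, with 556 ± 22.6 and 562 ± 26.0 CPM (0.02 ± 0.07, adjusted p = 0.85). The ratio of ATP5F1B to ATP5F1A counts was 1.34 ± 0.0277 in HCT 116p53-/- and 2.21 ± 0.0464 in the libraries labelled RPL3 KO with vehicle. The other head and central stalk subunits ATP5F1C (0.58), ATP5F1D (1.2) and ATP5F1E (0.45) were higher. Of the peripheral stalk, ATP5PB (0.42), ATP5PF (0.46, with groups that overlapped) and ATP5PO (0.55) were higher and ATP5PD was lower (-0.24, adjusted p = 0.0226, a call lost without HCT 116p53-/- vehicle replicate 1 or 2 or vehicle replicate 1 or 3 labelled RPL3 KO). With Act D, the difference of ATP5PB was 0.23 (adjusted p = 0.0152) and was lost without HCT 116p53-/- Act D replicate 2 or 3 or Act D replicate 2 or 3 labelled RPL3 KO.

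The c ring, the rotor through which protons pass, is made of one mature peptide that 3 genes encode with different import sequences, and 1 of the 3 differed. ATP5MC2, at chr12:53632726-53677408 on the minus strand, measured 82.4, 84.4 and 66.6 CPM in HCT 116p53-/- and 170, 257 and 225 CPM in the libraries labelled RPL3 KO with vehicle (1.49 ± 0.13, adjusted p = 1.78e-08). With Act D the values were 84.9, 75.9 and 64.0 CPM beside 244, 226 and 237 CPM (1.65 ± 0.14, adjusted p = 5.3e-09). ATP5MC1 (-0.18 ± 0.10, adjusted p = 0.122) and ATP5MC3 (0.09 ± 0.09, adjusted p = 0.381) did not pass with vehicle. By TPM, ATP5MC2 made up 25.6% ± 0.909 of the 3 genes in HCT 116p53-/- and 48.7% ± 4.88 in the libraries labelled RPL3 KO, while the share of ATP5MC3 went from 47.8% ± 1.95 to 35.0% ± 4.15 (SD, n = 3). The share of ATP5MC2 with Act D was 24.1% ± 2.51 and 51.9% ± 1.93. After the correction for GC content and length, ATP5MC1 was lower with vehicle (-0.61).

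The membrane subunit ATP5MF, at chr7:99448475-99466186 on the minus strand, and its read-through locus ATP5MF-PTCD1 differed in opposite directions. ATP5MF rose from 58.1 ± 8.81 to 142 ± 36.4 CPM with vehicle (1.30 ± 0.15, adjusted p = 5.18e-07). ATP5MF-PTCD1 was 18.1 ± 5.11 beside 11.3 ± 3.75 CPM with vehicle (-0.70 ± 0.23, adjusted p = 0.0122) and 18.2 ± 1.13 beside 6.25 ± 1.88 CPM with Act D (-1.58 ± 0.26, adjusted p = 3.23e-05). RSEM divides reads between the 2 overlapping genes, and the posterior SD of ATP5MF-PTCD1 was 10.9% of its count in the median library. The call with vehicle was lost without HCT 116p53-/- vehicle replicate 2 or without vehicle replicate 2 labelled RPL3 KO. ATP5ME, the member with the third highest level, did not pass with vehicle (-0.20 ± 0.10, adjusted p = 0.0856) and was lower with Act D (-0.44 ± 0.10, adjusted p = 0.000859).

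The line difference was measured a second time by the Act D libraries, which share no library with the vehicle comparison. Of the 55 members higher with vehicle, 48 were higher and none was lower with Act D, and of the 10 lower, 9 were lower. No member was called higher in one and lower in the other. Over the 83 members Pearson's r of the log2 differences was 0.926 and Spearman's rho was 0.880, and without NDUFA4L2 r was 0.835. These values describe genes of the same 2 lines, come from one fit over all 12 libraries, and are not independent replicates. Agreement over all genes was not measured, so the values have no background beside them. Calls were common in any case: with Act D, 35.1% of all genes were higher and 35.3% lower. The 7 higher members that passed with vehicle and not with Act D, such as NDUFB7 (0.70 with vehicle and 0.21 with Act D), were not shown to differ between the treatments, as the test of that difference gave no member.

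**Figure D3:**
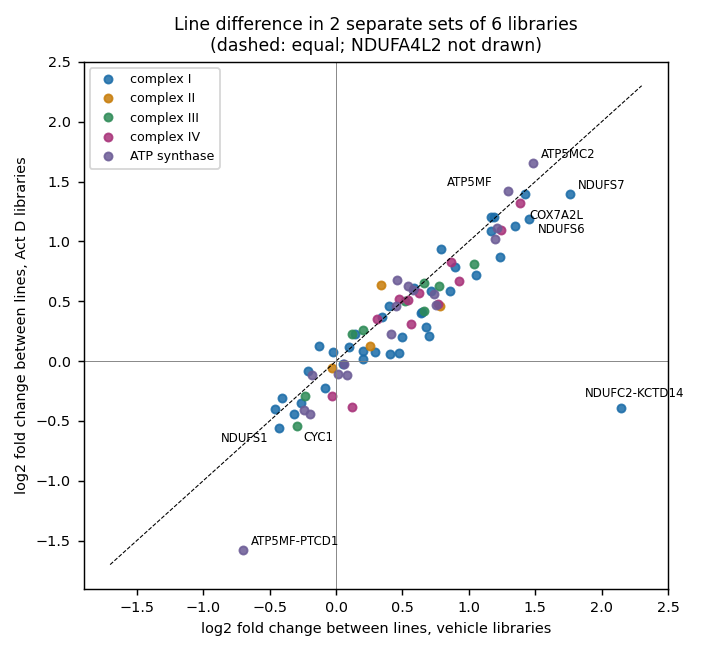
The log2 fold change between the lines in Act D libraries (vertical axis) is plotted against that in vehicle libraries (horizontal axis) for each member tested, colored by complex, with the dashed line where both are equal. Most points lie near the line, with r of 0.835 when NDUFA4L2, which is not drawn, is left out, and NDUFC2-KCTD14 lies apart at 2.14 and -0.39. The correlation over all genes was not measured.

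As a sum, the members took 0.813% ± 0.0389 of all counts in HCT 116p53-/- and 0.974% ± 0.0574 in the libraries labelled RPL3 KO with vehicle. The corresponding shares with Act D were 0.845% ± 0.0345 and 0.929% ± 0.0805, which overlapped. By TPM the sums did not separate the lines, at 8713 ± 773 and 8852 ± 654 TPM with vehicle. The signal recognition particle RNA RN7SL1 took 12.4% to 19.8% of all TPM, more of it in the libraries labelled RPL3 KO, so single TPM values are not compared between the lines, and shares of a fixed set of genes are. As a share of the TPM of protein-coding genes, the members made up 2.60% ± 0.0626 and 2.94% ± 0.0794 with vehicle and 2.74% ± 0.0113 and 3.00% ± 0.0588 with Act D, and on this scale the lines did not overlap. The median level of the members tested was 77.1 TPM in HCT 116p53-/- with vehicle, from 0.200 TPM for NDUFA4L2 to 401 TPM for ATP5F1B, followed by COX4I1 at 360 ± 39.7 and ATP5ME at 338 ± 31.3 TPM, whose ranges overlapped.

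Treatment with Act D changed few of the members. In HCT 116p53-/-, 7 of 83 were higher (7.59% of all genes) and 0 were lower (11.1% of all genes). The share of members that were higher was near the background, and 22 (26.5%) had an unadjusted p under 0.05, beside 31.0% of all genes. The 7 were NDUFA12, NDUFA13, NDUFB2, NDUFB9, NDUFS6, SDHA and NDUFC2-KCTD14, whose log2 responses, apart from that of NDUFC2-KCTD14 (2.07), were between 0.30 for NDUFB2 and 0.44 for NDUFS6. NDUFS6 measured 29.9, 32.0 and 24.6 CPM with vehicle and 38.3, 45.2 and 33.4 CPM with Act D (0.44 ± 0.12, adjusted p = 0.0142). SDHA measured 99.4, 109 and 115 CPM with vehicle and 139, 132 and 135 CPM with Act D (0.33 ± 0.10, adjusted p = 0.0231). The groups did not overlap in either gene, but each of the 7 calls was lost without at least one library. Without vehicle replicate 3, 2 members were higher, without either of Act D replicates 1 and 2, 3 members, and without vehicle replicate 2, 4 members. In these fits 4.13% to 5.17% of all genes were higher. DESeq2 gave 10 higher members and none lower, beside 8.46% higher and 11.1% lower over all genes.

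In the libraries labelled RPL3 KO, Act D gave 1 higher member (3.51% of all genes were higher) and 1 lower member (8.4% of all genes were lower). NDUFA6 rose from 43.1, 47.0 and 47.7 CPM to 54.3, 58.4 and 54.7 CPM (0.28 ± 0.09, adjusted p = 0.0426), and ATP5MF-PTCD1 fell (-0.88 ± 0.27, adjusted p = 0.0413) with groups that overlapped. The call on NDUFA6 was lost without any of the 6 libraries and that on ATP5MF-PTCD1 without replicate 1 or 3 of either group, and leaving out one library at a time gave 0 or 1 call. The median response of the members was 0.15 in HCT 116p53-/-, beside 0.02 over all genes, and 0.04 in the libraries labelled RPL3 KO, beside 0.03. The 2 responses were then compared with each other. No member differed between them at an adjusted p under 0.05 in edgeR's quasi-likelihood test, where 3.3% of all genes had a higher and 3.23% a lower response in the libraries labelled RPL3 KO. At an unadjusted p under 0.05 there were 10 members (12%, beside 21.2% of all genes), DESeq2 gave 0, the likelihood-ratio test gave 1 and the fit without a filter gave 3, all with a lower response in the libraries labelled RPL3 KO. Over all genes, these 3 fits gave a lower response there in 4.25%, 4.59% and 2.43%.

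The 13 subunits encoded by mitochondrial DNA, which join the nuclear subunits in complexes I, III, IV and ATP synthase, showed other calls. With vehicle 7 of the 13 were lower in the libraries labelled RPL3 KO (36.2% of all genes) and 0 were higher (35.1% of all genes), with a median of -0.55. MT-CYB, the cytochrome b of complex III, measured 134, 136 and 194 CPM in HCT 116p53-/- and 56.1, 64.1 and 87.6 CPM in the libraries labelled RPL3 KO (-1.16, adjusted p = 3.72e-06). MT-CO1, the catalytic subunit of complex IV, measured 763, 795 and 867 CPM beside 540, 812 and 1100 CPM (0.02, adjusted p = 0.935), so that its values in the second group spread around those of the first. With Act D, MT-CYB was lower between the lines (35.3% of all genes were lower) and MT-ND1 higher (35.1% of all genes). Over the alternatives 6 to 10 of the 13 were lower with vehicle and 1 to 7 with Act D, the latter 7 after the GC and length correction, with scaling by library size alone, without a filter and with only the groups compared. In response to Act D, all 13 were higher in the libraries labelled RPL3 KO (3.51% of all genes), by log2 values between 0.62 for MT-ND3 and 1.01 for MT-CO2. In HCT 116p53-/- 3 of the 13 were higher (7.59% of all genes), MT-ND2, MT-ATP8 and MT-CO2, with responses of all 13 between 0.36 and 0.62. The test of the difference between the responses gave 0 of the 13 (3.3% of all genes were higher and 3.23% lower), with 0 at an unadjusted p under 0.05 (21.2% of all genes). Over the alternatives 10 to 13 were higher in the libraries labelled RPL3 KO, 0 to 12 in HCT 116p53-/- and 0 to 4 in the difference. Transcripts of the mitochondrial genome took 8.57% ± 0.818 and 11.1% ± 0.887 of all counts in HCT 116p53-/- with vehicle and Act D, and 5.44% ± 0.852 and 8.21% ± 1.43 in the libraries labelled RPL3 KO.

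**Figure D4:**
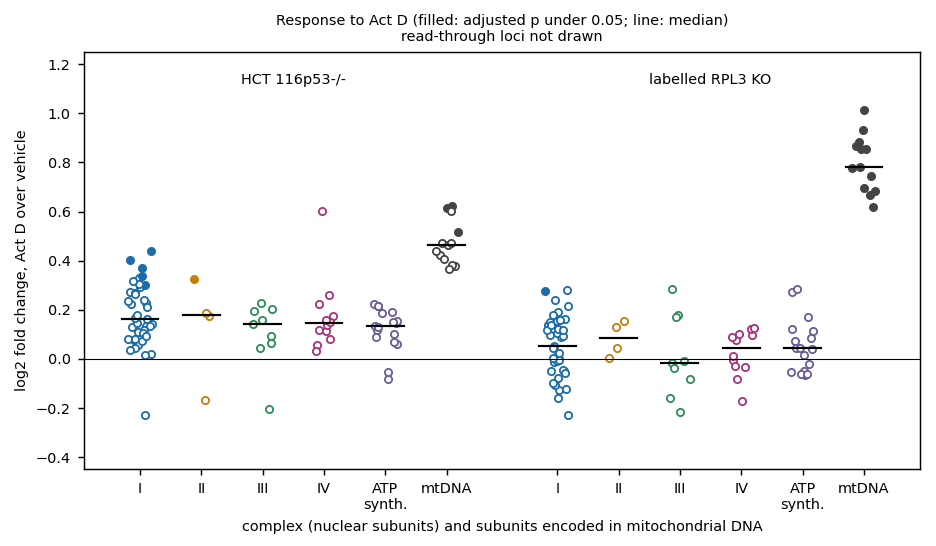
The log2 response to Act D (vertical axis) is plotted for each nuclear subunit by complex and for the 13 subunits of mitochondrial DNA, in HCT 116p53-/- (left) and in the libraries labelled RPL3 KO (right), with the median as a line and filled points past an adjusted p under 0.05. The nuclear subunits drawn have a median of 0.15 on the left and 0.04 on the right. The mitochondrially encoded ones lie between 0.36 and 0.62 on the left, a range that some nuclear subunits reach, such as NDUFS6 (0.44) and COX6B2 (0.60). On the right the mitochondrially encoded ones lie between 0.62 and 1.01, above all nuclear subunits drawn.

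Genes that act with the members were read from lists. Of 60 assembly factors and regulators of the complexes, all tested, 27 were higher and 19 lower between the lines with vehicle, and 27 and 21 with Act D, with medians of 0.16 and 0.10. With vehicle this was 45% higher and 31.7% lower, beside 35.1% and 36.2% of all genes. With Act D it was 45% and 35%, beside 35.1% and 35.3% of all genes. The 24 factors of complex IV had 10 higher and 9 lower with vehicle, among them COA8 (1.75), CMC1 (1.19), TMEM177 (-1.95), COA7 (-1.64), PET117 (-1.59) and SURF1 (-1.06). Of 7 ATP synthase factors, ATP5IF1, the inhibitor of reverse ATP hydrolysis, was higher (0.94) and TMEM70 (-1.08), ATPAF1 (-0.63) and ATPAF2 (-0.57), which act in assembly, were lower.

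Of 18 transcriptional regulators of respiratory genes, 16 were tested, and with vehicle 6 were higher and 6 lower where RPL3 KO was labelled, close to the 35.1% and 36.2% of all genes. The coactivator PPARGC1A measured 0.454, 0.0689 and 0.181 CPM in HCT 116p53-/- and 3.29, 5.05 and 5.94 CPM in the libraries labelled RPL3 KO (4.29), a low level in both. It was near 0 in HCT 116p53-/- with vehicle, so these values are a description with no test, although it is counted among the 6 higher. ESRRA (1.13), YY1 (1.04), TFAM (0.89), GABPB1 (0.73) and GABPA (0.39) were higher. MYC fell from 385 to 15.3 CPM (-4.66), and GABPB2 (-1.06), TFB1M (-1.02), PPRC1 (-0.80), HCFC1 (-0.54) and CREB1 (-0.27) were lower. With Act D the counts were 4 higher and 9 lower, beside 35.1% and 35.3% of all genes, and NRF1 (-0.53), POLRMT (-0.37) and TFB2M (-0.31) were among the lower ones. Act D itself lowered NRF1 in HCT 116p53-/- (-0.61) and in the libraries labelled RPL3 KO (-1.0), and PPARGC1B (-1.18 and -1.30). Levels of a regulator's mRNA were not tied to the members by any test.

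**Figure D5:**
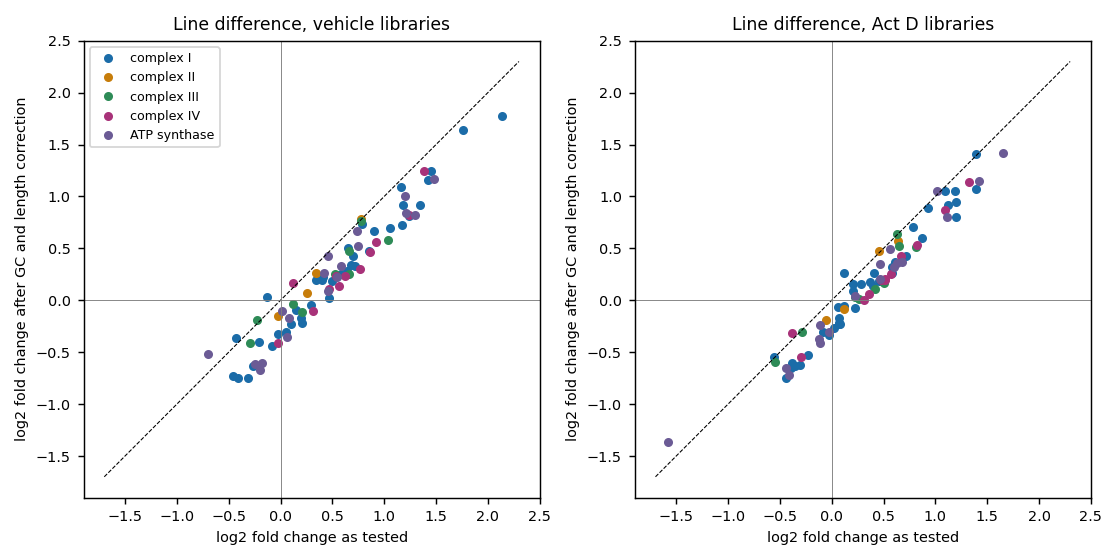
The log2 fold change between the lines after correction for GC content and transcript length (vertical axis) is plotted against the value as tested (horizontal axis) for each member, in vehicle libraries (left) and Act D libraries (right); the dashed line marks equal values and NDUFA4L2 lies outside the plot. Most points lie below the line, and the median of all members tested moved from 0.52 to 0.23 on the left and from 0.41 to 0.18 on the right.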

How the data were processed

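The authors prepared libraries with the TruSeq RNA kit, trimmed the reads, discarded rRNA and PhiX reads, and quantified the rest with RSEM 1.2.25 against Ensembl on hg38, as the methods and the submitters' notes state. Strand was not given in the sources used here. The deposited expected counts divide a read that fits several genes between them. The deposited TPM values were used for levels between genes. For replicate 2 of HCT 116p53-/- with vehicle the deposited values are per transcript (226788) and were summed per gene. Symbols and coordinates came from GENCODE v44 on hg38, which matched 60261 of 60617 identifiers.

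Expected counts were rounded, filtered with filterByExpr by group, scaled by TMM (factors 0.847 to 1.15) and fitted over all 12 libraries with a coefficient per group, using edgeR 4.0.16 in R 4.3.3. Each comparison was a quasi-likelihood test, with Benjamini-Hochberg adjustment over 15692 genes and a threshold of 0.05, and every adjusted p comes from it unless an alternative is named. Replicates are labelled biological, and nothing else states how they were separated. Floors cover counting error only. The members and the lists were chosen with earlier results of these data known. Genes were named if they were among the 4 largest changes in each direction of a comparison (at least 5 CPM in one group, no overlap), had the smallest p of a complex between lines, were central subunits or tissue-restricted isoforms with their common forms, were among the 3 highest or lowest by TPM, or were regulators that passed between lines; other genes in the text were chosen after their values were seen. Alternatives were DESeq2 1.42.0, the likelihood-ratio test, scaling by library size or upper quartile, no filter, a filter of 1 CPM in 3 libraries, a replicate block, only the groups compared, a GC and length correction (loess, span 0.3, with a value for all 83 members), pseudogene counts added, a log2 fold change of at least 1, and each library left out. The fits were also run on simulated data in which few genes changed, unlike the line comparisons here, and the outcome is not used as support. Python 3.11 with pandas 2.3.3 made the tables. Results on some genes are not reported here.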

Additional observations from a re-analysis of the deposited data

Results flagged for a closer look

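Both genes below are partners of the members and not members, and both had different responses to Act D in the 2 lines by the test of the difference itself. COX15, which makes the heme of complex IV, went in HCT 116p53-/- from 94.2 ± 3.39 CPM (vehicle) to 80.7 ± 2.56 CPM (Act D), and from 60.8 ± 0.772 to 69.5 ± 3.39 CPM in the libraries labelled RPL3 KO (SD, n = 3), a difference of responses of 0.415 on the log2 scale (adjusted p = 0.0268). PDSS2, of coenzyme Q synthesis, was 14.4 ± 0.677 and 9.51 ± 1.37 CPM in HCT 116p53-/- and 9.89 ± 0.862 and 10.9 ± 0.928 CPM in the libraries labelled RPL3 KO, a difference of 0.723 (adjusted p = 0.0299). Neither call is firm: that on COX15 was lost under 11 of 21 alternatives (adjusted p between 0.0086 and 0.157) and that on PDSS2 under 10 of 21 (between 0.00947 and 0.0917), the replicate block and most of the fits without one library among them.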

How the results depend on the processing

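Of the members called between the lines with vehicle, 42 of 55 higher and 3 of 10 lower calls held under all 16 alternatives, and with Act D 36 of 48 and 9 of 12, while none of the 7 and none of the 2 calls on the Act D responses did. The counts of higher members between the lines, here and in the next sentence, include NDUFA4L2, whose values are a description with no test. A log2 difference of at least 1 as a further condition left 18 members between the lines with vehicle and 15 with Act D, 1 in the response of HCT 116p53-/- and 0 in that of the libraries labelled RPL3 KO. Over all 15692 genes tested it left 5912, 5824, 454 and 202 in the same order. The median member difference became 0.23 with vehicle and 0.18 with Act D after the GC and length correction, and 0.28 and 0.17 with scaling by library size alone, which put the median responses at 0.047 in HCT 116p53-/- and -0.062 in the libraries labelled RPL3 KO. This scaling moved all genes alike, to medians of -0.26 between the lines and -0.081 and -0.070 for the responses, so the members lay 0.13 and 0.0071 above all genes, beside 0.13 and 0.014 as reported. Leaving out one library gave medians of 0.32 (without Act D replicate 3 labelled RPL3 KO) to 0.43 for the line difference with Act D. For the response in HCT 116p53-/-, 2 members were called with library size alone, 13 with only the groups compared, 14 with upper quartile scaling and 2 to 6 without one library. The shares of all genes moved too. They were 3.51% higher and 14.7% lower, 10.4% and 14.2%, and 9.43% and 9.68% in the first 3 of these settings. Without one library they were 4.13% to 5.55% higher and 7.27% to 8.89% lower. For the response in the libraries labelled RPL3 KO, 1 member was called with library size alone, 1 without a filter, 0 with only the groups compared and 0 to 1 without one library. Over all genes the first 3 gave 1.45% higher and 11.8% lower, 1.38% and 4.98%, and 1.93% and 7.96%. The difference of the responses gave 1 member in the likelihood-ratio test, 3 without a filter and 0 to 2 without one library. Over all genes, 4.81% were higher and 4.59% lower in the likelihood-ratio test, and 1.60% and 2.43% without a filter. The sign reversed for NDUFB9 (-0.049) and COX7A2 (-0.11) with vehicle and COX6A1 (-0.0021) with Act D after the GC and length correction, and for ATP5PB (-0.022) with Act D under library size alone, where the shift of all genes by itself accounts for the sign. Causes of these shifts were not tested beyond the construction of each alternative. With the replicate number as a block, 64, 60, 6, 0 and 0 members were called in the 5 comparisons, beside 10964, 10818, 2469, 1502 and 722 of all genes. Same-numbered libraries deviated together with r between -0.10 and 0.10 over genes, as did libraries with different numbers. Deviations within groups of 3 libraries cannot exclude a pairing, and the main fit used none. With 3 libraries a group and a single derived line, and at these depths, isoforms at or near 0 counts could not be compared.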

Other observations

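Pathways that feed the chain were also read from lists. Of 17 genes of the citric acid cycle and pyruvate dehydrogenase, 11 were higher and 4 lower with vehicle where RPL3 KO was labelled, and 9 and 1 with Act D, beside 35.1% higher and 36.2% lower over all genes with vehicle and 35.1% and 35.3% with Act D. DLST, a subunit of the oxoglutarate dehydrogenase complex, had the largest difference with vehicle (1.16), CS, citrate synthase, differed by 0.75, and the succinate-CoA ligase subunits differed in opposite directions (SUCLG1 0.75 and SUCLG2 -0.80). Of 15 genes of coenzyme Q synthesis and cytochrome c, 4 were higher (26.7%) and 6 lower (40%) with vehicle. With Act D, 2 were higher (13.3%) and 5 lower (33.3%). Over all genes the shares were 35.1% and 36.2% with vehicle, and 35.1% and 35.3% with Act D. COQ2, which attaches the isoprenoid tail, was lower (-0.98) and CYCS, cytochrome c, was higher (0.39).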
